A study of Sus scrofa with 3 samples.

Results

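The genes described here encode 10 proteins of branched-chain amino acid breakdown, measured by RNA-Seq in visceral adipose tissue of male Wuzhishan miniature pigs. They were chosen by name, as genes of type mRNA, and all 10 were found among the 22826 mRNA genes of the 3 libraries (34570 genes of all types). Of these, 9 were listed under their own symbol, and HIBCH was listed as LOC100514687 and matched through its gene ID. All pigs were 6 to 7 months old when obtained, spent an acclimation period on a standard diet, and then received a high-fat, high-cholesterol (HFC) diet for 12 weeks. IM pigs were left intact and had sham skin incisions, CM pigs were castrated, and CMT pigs were castrated and injected intramuscularly every week with testosterone propionate at 10 mg/kg in corn oil. For each group the RNA of several pigs (4 to 6 by the sample labels, 4 by the paper's methods) was mixed in equal amounts into 1 library. Thus no value below has a replicate, no test between conditions was possible, and animal-to-animal spread is unknown. The CMT pigs also carry the castration of the CM group, and the 3 comparisons (CM versus IM, then CMT against each of them) share libraries with each other.

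Leucine, isoleucine and valine are taken up by transporters and lose their amino group to branched-chain aminotransferases. The resulting keto acids are then decarboxylated irreversibly in mitochondria by the branched-chain keto acid dehydrogenase (BCKDH) complex, which a dedicated kinase phosphorylates and switches off. Separate enzymes carry the products of each amino acid on to acetyl-CoA, acetoacetate or propionyl-CoA, and adipose tissue is known as a site of this pathway.

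Values are UQRPKM, reads per kilobase of gene scaled to each library's upper quartile. The libraries held 16611931 (IM), 15561124 (CM) and 15106608 (CMT) reads on genes. The reads behind each value were recovered from the values themselves, and 95% exact intervals computed from them (Poisson for a level, Clopper-Pearson for a ratio) cover counting error only, since PCR reads without molecular identifiers are not independent molecules. A gene was called higher or lower where it reached 1 UQRPKM in both libraries and differed by a fold of 1.5 or more, and an interval of the log2 ratio that leaves out 0 is given as a separate, weaker statement about 2 libraries.

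Marker genes set limits on the tissue pools. The summed level of 6 adipocyte markers was 131389, 122400 and 105490 UQRPKM in IM, CM and CMT, with none at 0. FABP4 and LPL, also on the adipocyte list, and CDH5, on the endothelial list, were not analysed here. Among 13 skeletal muscle markers the sum was 102, 85.8 and 7048 UQRPKM, with TNNT3, CKM and MB at 0 in every library and MYH2 also at 0 in CM. Among 15 hepatocyte markers the sum was 2602, 11518 and 1769 UQRPKM, and 5, 0 and 6 of them were at 0. APOA1 made up most of it outside CM (2539 UQRPKM in IM, 2339 in CM, 1714 in CMT), and the other 14 summed to 63.0, 9180 and 54.9 UQRPKM, with ALB at 2.61, 2910 and 4.00. Mesothelial markers (4 genes, LRRN4 at 0 throughout) summed to 44.0, 105 and 300 UQRPKM. Summed levels of 7 macrophage markers were 1045, 1157 and 990 UQRPKM with CD163 at 0 in every library. Of these, CD68 (17.2, 42.9 and 22.2 UQRPKM) and EMR1 (45.6, 93.6 and 30.6) were called higher in CM versus IM and lower in CMT versus CM. The list did not move as 1. By counting interval, 3 of the 6 tested were higher in CM versus IM and 1 lower (CSF1R, log2 ratio -0.22). In CMT versus CM 4 were lower and 1 higher (MRC1, 0.21). Summed levels were, for 4 T cell markers, 262, 231 and 283, for 4 endothelial markers 6838, 6022 and 6692, and for 4 stromal markers 18039, 15912 and 20177. The CMT library, high in muscle markers, and the CM library, high in hepatocyte markers, stand apart in each comparison that uses them. Muscle and liver are known to express genes of the pathway too. The part of these markers in the results below was not tested, and in bulk tissue fewer cells of a type and less RNA per cell cannot be told apart.

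The pathway was strongly represented in all 3 libraries, and its summed level was nearly even. The 10 genes added up to 5436, 5631 and 5293 UQRPKM in IM, CM and CMT, on 14726, 14474 and 14210 reads. Single genes spanned a wide range, from BCAT1 at 8.95 UQRPKM to IVD at 1475 UQRPKM in IM. IVD lay above 96.1% of the mRNA genes detected in IM, whereas BCAT1 lay above 24.5% and HIBCH above 49.3%. The other 7 genes lay between DBT, above 77.0%, and BCKDK, above 94.1%.

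**Figure D1:**
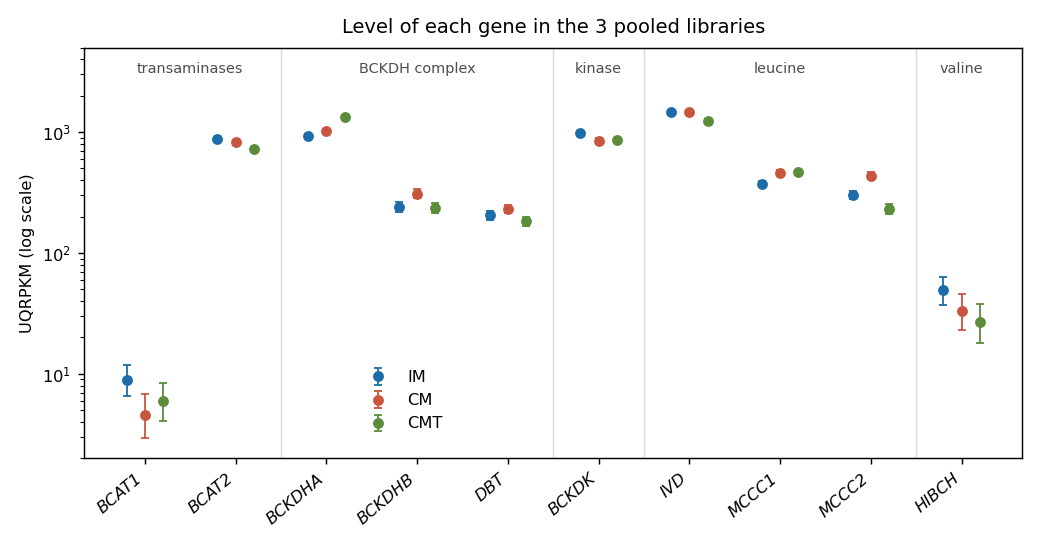
Level of each of the 10 genes in the IM, CM and CMT pools in UQRPKM on a log scale, with genes in pathway order and bars giving exact 95% Poisson intervals (counting error only, 1 library a group). BCAT1 and HIBCH lie far below the other 8 genes, BCKDHA is highest in CMT at 1329 UQRPKM, and MCCC2 is lowest in CMT at 232 UQRPKM.

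The ranking of levels, which are per length of gene, was led by the same few enzymes in every library. In IM the order was IVD, BCKDK, BCKDHA, BCAT2, MCCC1, MCCC2, BCKDHB, DBT, HIBCH and BCAT1, and only the neighbours BCKDK and BCKDHA did not differ beyond counting error. In CM, BCKDHA stood above BCKDK, and the neighbours BCKDK and BCAT2, and MCCC1 and MCCC2, did not differ beyond counting error. In CMT, BCKDHA took the first place ahead of IVD, and BCKDHB stood above MCCC2 by less than counting error. HIBCH and BCAT1 held the last places in all 3 libraries.

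The aminotransferases start the pathway. BCAT2, the mitochondrial enzyme, carried nearly all of the signal at 870, 832 and 730 UQRPKM in IM, CM and CMT (3499, 3189 and 2876 reads). Its log2 ratio was -0.06 (interval -0.13 to 0.01) for CM to IM. CMT gave -0.19 (-0.26 to -0.12) to CM and -0.25 (-0.33 to -0.18) to IM. The CMT pool was thus the lowest for BCAT2, by a fold of 1.19 from IM, which is under the calling limit.

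BCAT1, the cytosolic aminotransferase, was scarce, at 8.95 UQRPKM in IM (interval 6.62 to 11.8), 4.60 in CM (2.95 to 6.84) and 5.97 in CMT (4.08 to 8.42). It fell in CM versus IM, with a log2 ratio of -0.96 (-1.73 to -0.23). It was also called lower in CMT versus IM, at a fold of 1.5 that only just met the limit, but the interval of this log2 ratio of -0.59 held 0 (-1.28 to 0.09). CMT versus CM gave 0.38 (-0.43 to 1.2) and no call. These ratios rest on 49, 24 and 32 reads, so the depth separated IM from CM but not CMT from either. BCAT2 exceeded BCAT1 by 97.2 times in IM (73.4 to 132), 181 times in CM (121 to 283) and 122 times in CMT (86.5 to 179).

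The subunits of the BCKDH complex did not move together. BCKDHA encodes the alpha subunit of the decarboxylase that gives the complex its first reaction. Its level was 929, 1014 and 1329 UQRPKM in IM, CM and CMT (2498, 2600 and 3501 reads). The level was highest in CMT, with a log2 ratio of 0.39 (0.32 to 0.46) to CM and 0.52 (0.44 to 0.59) to IM. The latter is a fold of 1.43 and was not called at 1.5, but 2.64% of the 6555 mRNA genes with 500 or more reads over both libraries lay at least as far above 0. CM versus IM gave 0.13 (0.05 to 0.21) for BCKDHA.

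BCKDHB, the beta subunit that pairs with BCKDHA in the decarboxylase, was instead highest in CM. It measured 239, 310 and 236 UQRPKM in IM, CM and CMT, with 400, 494 and 387 reads. The log2 ratio of CM to IM was 0.37 (0.18 to 0.57). CMT gave -0.39 (-0.59 to -0.20) to CM and -0.02 (-0.22 to 0.19) to IM. IM and CMT were indistinguishable by counting error, and CM lay above both by a fold of about 1.30 or 1.31, with no call.

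DBT, the dihydrolipoyl transacylase core of the complex, followed the order of BCKDHB. It stood at 205, 232 and 183 UQRPKM in IM, CM and CMT (605, 651 and 529 reads). Its log2 ratios were 0.18 (0.01 to 0.34), -0.34 (-0.51 to -0.17) and -0.16 (-0.34 to 0.01) for CM to IM, CMT to CM and CMT to IM, respectively. Again CM was the highest pool, IM and CMT were not separated by counting error, and no comparison was called. The lower bound for CM versus IM lay close to 0.

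Relative to each other, the subunits gave a measure that does not depend on how the libraries were scaled. For each of 6 pairs of genes, chosen for a shared complex or step after the values were seen, the ratio of levels was taken within each library and compared between libraries. BCKDHA exceeded BCKDHB by 3.88 times in IM (3.49 to 4.32), 3.27 times in CM (2.97 to 3.61) and 5.62 times in CMT (5.06 to 6.26). The CMT ratio was 1.72 times that of CM (1.49 to 1.99) and 1.45 times that of IM (1.24 to 1.69), whereas CM stood at 0.843 times IM (0.729 to 0.975). BCKDHA exceeded DBT by 4.52, 4.37 and 7.25 times in IM, CM and CMT, and the CMT ratio was 1.66 times that of CM (1.46 to 1.88). DBT to BCKDHB was 0.858, 0.747 and 0.775, and none of the 3 comparisons of this pair left out 1. The alpha subunit thus stood apart from both partners in the CMT pool, while the partners kept to each other within counting error.

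BCKDK encodes the kinase that phosphorylates the alpha subunit and holds the complex inactive. It was measured at 980, 852 and 858 UQRPKM in IM, CM and CMT (2691, 2228 and 2307 reads). It was highest in IM, to which CM had a log2 ratio of -0.20 (-0.29 to -0.12) and CMT one of -0.19 (-0.27 to -0.11), neither of them a call. CM and CMT did not differ beyond counting error, at 0.01 (-0.07 to 0.10). Set against its substrate, BCKDHA was 0.947 times BCKDK in IM (0.897 to 1), 1.19 times in CM (1.12 to 1.26) and 1.55 times in CMT (1.47 to 1.63). Every step of this order held between libraries, with CM at 1.26 times IM (1.16 to 1.36), CMT at 1.3 times CM (1.2 to 1.41) and CMT at 1.63 times IM (1.51 to 1.76).

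**Figure D2:**
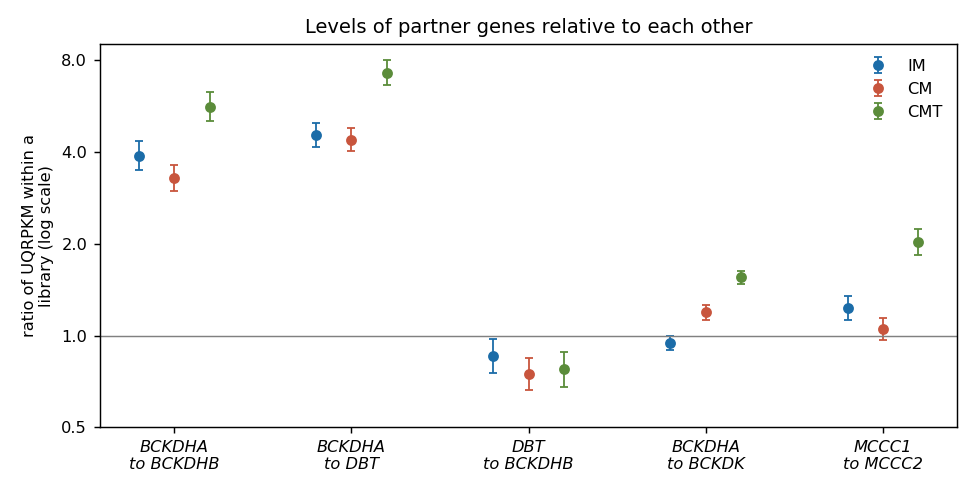
Ratio of UQRPKM within a library for 5 pairs of partner genes, on a log scale, in IM, CM and CMT with 95% counting intervals. The CMT pool is the highest for BCKDHA to BCKDHB (5.62), BCKDHA to DBT (7.25), BCKDHA to BCKDK (1.55) and MCCC1 to MCCC2 (2.02), and DBT to BCKDHB overlaps among the 3 pools.

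The leucine branch follows the complex. IVD, isovaleryl-CoA dehydrogenase, takes the first step specific to leucine and reached 1475, 1457 and 1226 UQRPKM in IM, CM and CMT (2816, 2650 and 2293 reads). IM and CM did not differ beyond counting error, with a log2 ratio of -0.02 (-0.10 to 0.06). CMT was lower than both, at -0.25 (-0.33 to -0.17) to CM and -0.27 (-0.35 to -0.19) to IM, without a call.

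MCCC1 and MCCC2 encode the alpha and beta subunits of methylcrotonyl-CoA carboxylase, the biotin enzyme that follows IVD. MCCC1, which carries biotin, was lowest in IM at 375 UQRPKM and similar in CM and CMT at 459 and 467 (1431, 1670 and 1747 reads). Its log2 ratio was 0.29 (0.19 to 0.40) in CM versus IM and 0.32 (0.22 to 0.42) in CMT versus IM. CMT versus CM gave 0.03 (-0.07 to 0.12), an interval that held 0, and none of the 3 was called.

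MCCC2 had the widest swing of the genes with many reads. It measured 304 UQRPKM in IM (282 to 328), 437 in CM (409 to 466) and 232 in CMT (212 to 253), from 681, 932 and 508 reads. MCCC2 fell in CMT versus CM by a fold of 1.89, a log2 ratio of -0.92 (-1.07 to -0.76). Only 1.29% of the 6438 mRNA genes with 500 or more reads over both libraries lay at least as far below 0. In CM versus IM its log2 ratio was 0.52 (0.38 to 0.67), a fold of 1.44 and short of a call, with 2.15% of 6509 genes at least as far above 0. CMT versus IM gave -0.39 (-0.56 to -0.23), so the 3 pools were all separated by counting error for this gene, in the order CM, IM, CMT.

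The subunits of this carboxylase were therefore closest in CM and farthest apart in CMT. MCCC1 exceeded MCCC2 by 1.23 times in IM (1.12 to 1.35), 1.05 times in CM (0.970 to 1.14) and 2.02 times in CMT (1.83 to 2.23). The ratio in CMT was 1.92 times that in CM (1.69 to 2.18) and 1.64 times that in IM (1.43 to 1.88), and CM stood at 0.853 times IM (0.754 to 0.965).

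HIBCH, the hydrolase that releases hydroxyisobutyrate from its CoA ester in the valine branch, had few reads, and its values lay in the order IM, CM, CMT. Its match to LOC100514687 used a gene table of another build, and its recovered length was 767 bases. Whether that entry covers the whole gene was not checked. It had 49.0 UQRPKM in IM (37.0 to 63.6), 33.1 in CM (23.2 to 45.8) and 26.8 in CMT (18.1 to 38.2), from 56, 36 and 30 reads. HIBCH fell in CMT versus IM by a fold of 1.83, a log2 ratio of -0.87 (-1.56 to -0.21). CM versus IM was just short of a call at a fold of 1.48, with a log2 ratio of -0.57 and an interval that held 0 (-1.21 to 0.06). CMT versus CM, at -0.30 (-1.05 to 0.44), could not be separated at this depth.

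**Figure D3:**
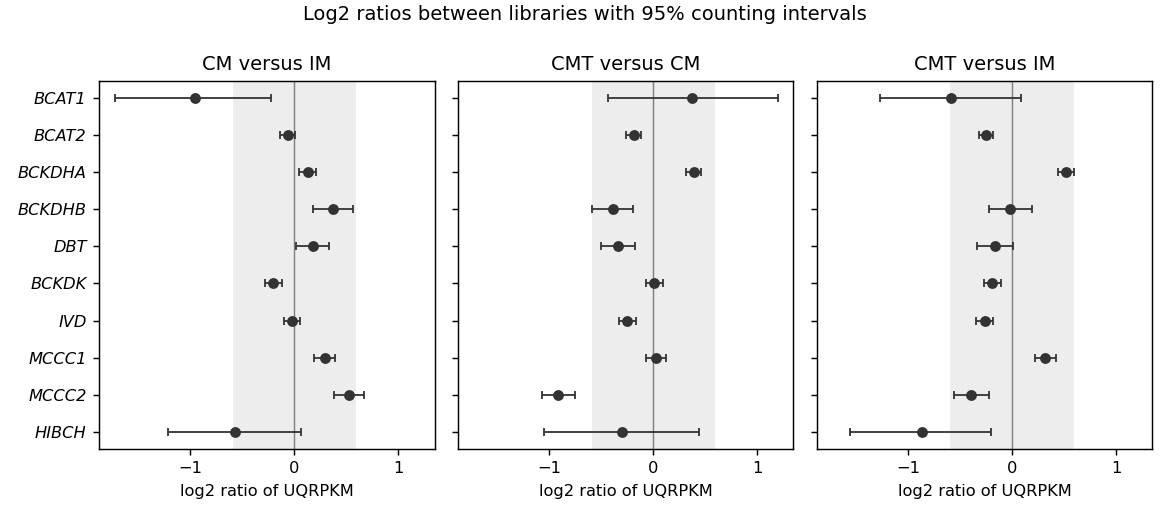
Log2 ratio of UQRPKM for each of the 10 genes in the 3 comparisons, 1 panel each, with 95% counting intervals and grey shading where the fold is under 1.5. Points outside the shading are BCAT1 in CM versus IM (-0.96), MCCC2 in CMT versus CM (-0.92), and HIBCH (-0.87) with BCAT1 at the edge (-0.59) in CMT versus IM.

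Over the 10 genes, calls at 1.5-fold were close to their share among all genes. In CM versus IM none of the 10 was called higher and BCAT1 was called lower. Of all 14123 mRNA genes tested, 8.38% were called higher and 10.4% lower. Fold calls were rarer among the 6509 with 500 or more reads over both libraries, at 107 higher and 200 lower. None of the 8 members with that many reads was called. By counting intervals, BCKDHA, BCKDHB, DBT, MCCC1 and MCCC2 were higher in CM and BCAT1 and BCKDK lower, which is 5 and 2 of 10 against 15.6% and 26.6% of all genes. Intervals narrow with depth, so the 8 genes with 500 or more reads are better read against all genes above that limit, called as deep below. Of the 8, 5 were higher and 1 lower, where 19.7% and 39.9% of 6509 such genes were. The limit is a floor, and some of the 8 lie far above it (BCAT2 at 6688 reads over both libraries), so depth is not matched. The median log2 ratio was 0.05 over the 10 genes and -0.06 over all genes tested, and 0.15 against -0.08 among those with 500 or more reads. The CM library is the one with the high hepatocyte marker sum.

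Between the testosterone-treated and the untreated castrated pigs, the balance of the intervals was the other way. In CMT versus CM none of the 10 genes was called higher and MCCC2 was called lower, beside 9.53% and 9.97% of 14098 mRNA genes. Of the 6438 with 500 or more reads, MCCC2 among them, 132 were called higher and 222 lower. Counting intervals put only BCKDHA higher in CMT and placed BCAT2, BCKDHB, DBT, IVD and MCCC2 lower, which is 1 and 5 of 10 against 17.3% and 21.1% of all genes. The same 1 and 5 genes made up the count among the 8 deep genes, against 21.4% and 30.3% of 6438. The median was -0.22 over the 10 genes and -0.02 over all genes tested. Over 6 adipocyte markers the median log2 ratio in this comparison was -0.36, with 5 of 6 lower by counting interval and 1 called lower, and the CMT library is the one with the high muscle marker sum.

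Between the intact and the testosterone-treated castrated pigs, the called genes were those with few reads. In CMT versus IM none was called higher, and BCAT1 and HIBCH were called lower, beside 8.81% and 11.9% of 14151 mRNA genes. Of the 6555 with 500 or more reads, 120 were called higher and 349 lower, and none of the 8 members this deep was called. By counting intervals BCKDHA and MCCC1 were higher in CMT and BCAT2, BCKDK, IVD, MCCC2 and HIBCH lower, so 2 and 5 of 10, against 15% and 29.5% of all genes. Among the 8 deep genes 2 were higher and 4 lower, against 17.7% and 45.1% of 6555 genes. The median of -0.22 over the 10 genes stood beside -0.08 over all genes tested and, for the 6 adipocyte markers, -0.32. This comparison depends on scaling more than the others, since 42.4% of all called mRNA genes were higher under the upper quartile and 56.2% when libraries were scaled by all recovered reads. Under that scaling BCKDHA was called higher at a log2 ratio of 0.62 and BCAT1 was no longer called lower.

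The rest of the pathway was described in the same way. Of 24 further genes (transporters, shared and controlling proteins, and later enzymes), 21 were found as mRNA, KLF15 and ECHS1 were listed at 0 in every library, and 19 were tested. Genes at 0 in every library, in this and the other lists, are not read as unexpressed, since the counting tool and annotation are not given. SLC7A5, SLC43A1 and PPM1K were not analysed here. None of the 19 was called higher in the 3 comparisons, where 8.38%, 9.53% and 8.81% of all mRNA genes were. Among genes with 500 or more reads, as 16 of the 19 had, only 107 of 6509, 132 of 6438 and 120 of 6555 were. SLC7A8 was called lower in CM versus IM (10.4% of all genes), none in CMT versus CM (9.97%) and ACAD8 in CMT versus IM (11.9%). For genes with 500 or more reads, as ACAD8 had, the last share was 349 of 6555. By counting intervals 9 were higher and 4 lower for CM to IM, 2 and 12 for CMT to CM, and 4 and 8 for CMT to IM, with median log2 ratios of 0.04, -0.18 and -0.06. The shares of all mRNA genes higher and lower were 15.6% and 26.6%, 17.3% and 21.1%, and 15% and 29.5%. Of the 16 with 500 or more reads, 9 were higher and 3 lower for CM to IM, where 19.7% and 39.9% of genes as deep were. The same count was 1 and 12 for CMT to CM, against 21.4% and 30.3%, and 4 and 7 for CMT to IM, against 17.7% and 45.1%. Scaling by all recovered reads left 8 of the 12 lower for CMT to CM, and turned the CMT to IM count over the 19 genes to 7 higher and 5 lower, with a median of 0.05. This scaling moves every gene alike, and the interval shares of all genes under it are not given here. The median over all mRNA genes tested went from -0.02 to 0.06 for CMT to CM and from -0.08 to 0.03 for CMT to IM.

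SLC7A8, a transporter of large neutral amino acids listed as LOC100522330, was the lowest of these genes above 0 in IM. It had 23.8, 14.1 and 19.7 UQRPKM in IM, CM and CMT, and the log2 ratio of CM to IM was -0.76 (-1.2 to -0.33). ACAD8, isobutyryl-CoA dehydrogenase of the valine branch, had 524, 423 and 348 UQRPKM, and its fall in CMT versus IM was a log2 ratio of -0.59 (-0.73 to -0.45), just past the limit. This call was lost under the 3 other scalings, at -0.55 to -0.49. HSD17B10, a dehydrogenase of the isoleucine branch, was the highest in IM at 1876 UQRPKM, with 1792 in CM and 1447 in CMT.

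By role, the isoleucine and valine enzymes of this wider list, apart from ECHS1 at 0, were all deep, with 500 or more reads over both libraries. The 6 that were tested had counting intervals below 0 in CMT versus CM, against 30.3% of genes as deep, with a median log2 ratio of -0.29. ACAT1 counts among them at only -0.12, on 10047 reads over both libraries. When scaled by all recovered reads 5 of the 6 did, and the share of all genes under that scaling is not given here. In turn 4 of the 6 had intervals above 0 in CM versus IM, against 19.7%, with 1 below and a median of 0.27. Among them HIBADH, which acts right after HIBCH, had 287, 351 and 239 UQRPKM in IM, CM and CMT. Of the 6 propionyl-CoA genes, PCCA, PCCB and MCEE had intervals above 0 in CM versus IM, at 0.38, 0.20 and 0.52. Intervals of MUT, MMAA and MMAB, at 0.04, -0.11 and -0.31, held 0. Among the 4 with 500 or more reads, 3 were thus above 0, against 19.7% of genes as deep. In CMT versus CM 2 of these 4, PCCA and PCCB, had intervals below 0, against 30.3%, and both held 0 when scaled by all recovered reads. DLD, the dihydrolipoyl dehydrogenase that the BCKDH complex shares with other complexes, had 513, 579 and 510 UQRPKM, with a log2 ratio of 0.17 (0.08 to 0.27) for CM to IM and of -0.18 (-0.28 to -0.09) for CMT to CM. Like BCKDHB and DBT, it was highest in the CM pool. The order is not particular to this pathway, since PDHA1, DLAT and PDHX of the pyruvate dehydrogenase complex, described below, were also highest in CM. PDHB of that complex was not. HIBADH, DLD, the propionyl-CoA genes and these subunits were picked for mention after their values were seen.

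**Figure D4:**
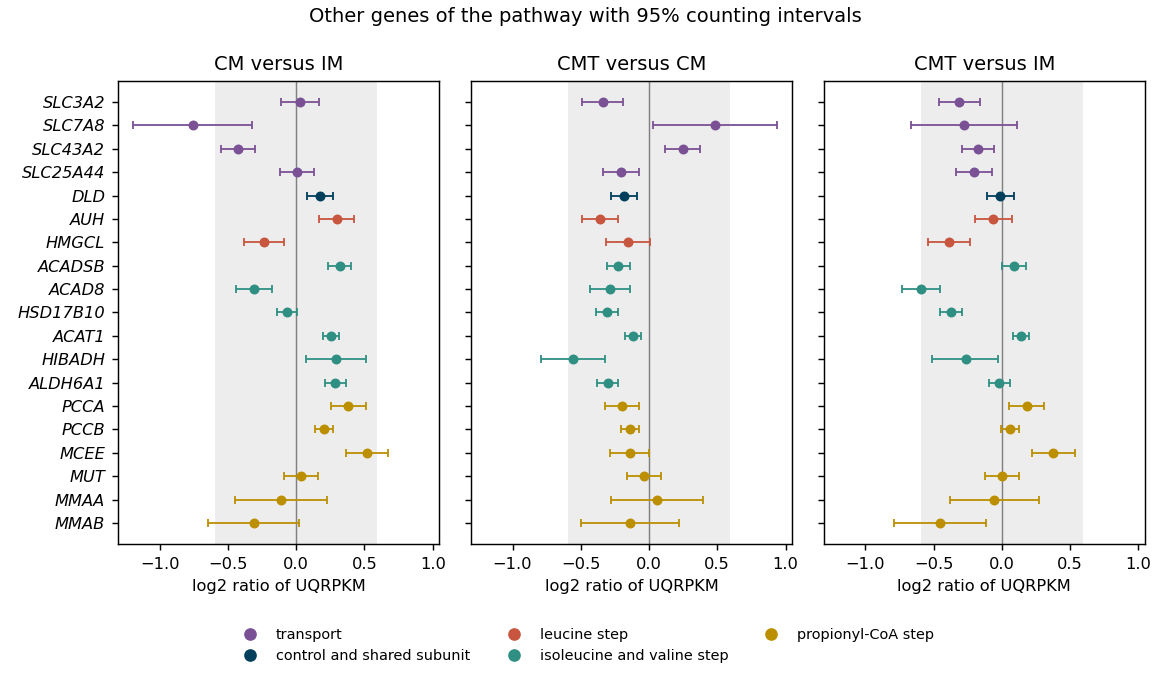
Log2 ratio of UQRPKM for 19 further genes of the pathway in the 3 comparisons, coloured by role, with 95% counting intervals and grey shading where the fold is under 1.5. SLC7A8 in CM versus IM (-0.76) and ACAD8 in CMT versus IM (-0.59) are the points outside the shading, and 16 of 19 points lie below 0 in CMT versus CM. Of all mRNA genes tested, 7428 of 14098 lie below 0 there.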

How the data were processed

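Total RNA of visceral adipose tissue was pooled by group and sequenced single-end on the Ion Proton (1 library each of IM, CM and CMT). The authors filtered reads, mapped them to Sscrofa 10.2 with MapSplice and deposited RPKM values scaled by the upper quartile (UQRPKM). The counting tool and annotation are not given in the sources used here, and no coordinates are printed because the gene table at hand is of another build. Reads were recovered as the whole numbers that the values imply, with upper quartiles of 149, 142 and 146 and the shortest gene length up to 120000 bases. All 20838 genes above 0 gave whole reads (largest relative error 7.65e-09), though reads that have a common factor in all libraries come out too low, which widens the interval. Calls used a fold of 1.5 and 1 UQRPKM in both libraries, without a pseudocount. Ratio intervals were exact Clopper-Pearson intervals of a gene's reads in 1 library out of both, at 95%. Recovery was tested on simulated data. Genes named are all 10 members and, of the wider pathway, those called with an interval that left out 0 and the highest and lowest in IM. A few more, marked in the text, were picked after their values were seen. Members and lists were chosen with earlier results of these data known. Alternatives were 3 other scalings, a pseudocount, the fold, the level limit and a 99% interval. Python 3.11.15, numpy 2.4.6, scipy 1.17.1, pandas 2.3.3 and matplotlib 3.10.9 were used.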

Additional observations from a re-analysis of the deposited data

How the results depend on the processing

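No paired analysis was possible because each group is 1 pooled library, and leaving out a library would leave no comparison. The counts of 1.5-fold calls are small and moved with the settings. At a fold of 2 the genes called lower were 0 in all 3 comparisons. At a fold of 1.2 the genes called higher were 3, 2 and 2 and those called lower 2, 4 and 4 for CM to IM, CMT to CM and CMT to IM. Shares of all mRNA genes at folds of 2 and 1.2 are not given here, so these counts cannot be set against a background. Asking for 10 UQRPKM in both libraries removed BCAT1, leaving 0 called lower in CM versus IM and 1 (HIBCH) in CMT versus IM. In CMT versus IM 1 gene (HIBCH) was called lower under a pseudocount of 1 UQRPKM and under scaling by total UQRPKM, by the median ratio of genes with 100 or more reads, or by all recovered reads. Scaling by the median ratio added 1 gene called higher in CM versus IM (MCCC2) and, as did scaling by all reads, 1 in CMT versus IM (BCKDHA, at 0.61 and 0.62). By counting interval the members of each count were the same under all 3 other scalings, except that scaling by all reads put 3 genes higher in CMT versus CM (BCKDHA, BCKDK and MCCC1) in place of 1, and a 99% interval dropped DBT in CM versus IM. Of 120 single log2 ratios under alternatives 12 moved by more than their counting error and 7 had another sign, all 7 of BCAT2 or IVD in CM versus IM or BCKDHB in CMT versus IM, where the interval held 0. Interval shares of all genes under the other scalings are not given here. Scaling by all reads shifted every CMT versus IM ratio by 0.11 (log2). All mRNA genes called there were 1246 higher and 1690 lower, against 1604 and 1250 under that scaling and 1552 and 1288 (54.6% higher) under the median ratio. Scalings of genes outside the 10 were added after the data were seen, and SLC7A8 and PDK1 stayed called while ACAD8 and CS did not. Depth limits BCAT1 and HIBCH, with 24 to 56 reads a library.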

Other observations

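The pyruvate dehydrogenase complex, which resembles the BCKDH complex and shares DLD with it, was described for comparison with its kinases (8 genes, all tested). PDK1, a kinase that inhibits the complex, was called higher in CM versus IM, at 183, 291 and 277 UQRPKM in IM, CM and CMT and a log2 ratio of 0.67 (0.55 to 0.78). It was also called higher in CMT versus IM, at 0.60 (0.48 to 0.71), and no other gene of the list was called. Of all mRNA genes 8.38% and 8.81% were called higher in these comparisons. Of those with 500 or more reads, as PDK1 had, 107 of 6509 and 120 of 6555 were. PDK4, a kinase known to rise in fasting, had 2013, 1460 and 2140 UQRPKM, with a log2 ratio of -0.46 (-0.51 to -0.42) for CM to IM and of 0.55 (0.51 to 0.60) for CMT to CM. DLAT, the transacetylase core, had the lowest log2 ratio of the list in CMT versus CM, at -0.38 (-0.49 to -0.27), and PDHA1 the lowest in CMT versus IM, at -0.14 (-0.19 to -0.09). The list's median log2 ratios were 0.18, -0.10 and 0.02 for CM to IM, CMT to CM and CMT to IM. By counting intervals 5 were higher and 1 lower for CM to IM, 1 and 4 for CMT to CM, and 2 and 3 for CMT to IM. All 8 had 500 or more reads over both libraries. Shares of genes as deep were 19.7% and 39.9%, 21.4% and 30.3%, and 17.7% and 45.1%.

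Of 16 citric acid cycle genes SDHA was listed at 0 in every library and 15 were tested. CS, citrate synthase, was the only one called, lower in CMT versus CM at a log2 ratio of -0.60 (-0.69 to -0.51), with 1945, 2018 and 1334 UQRPKM in IM, CM and CMT. The call was lost under the 3 other scalings, at -0.57 to -0.52. In CMT versus CM 9.97% of all mRNA genes were called lower, and 222 of the 6438 with 500 or more reads, as CS had. In CMT versus IM it was again the lowest of the list, at -0.55 (-0.64 to -0.46), without a call. In CM versus IM the extremes were SDHD at 0.15 and IDH3B at -0.52. SUCLA2 was the highest in CMT versus CM at 0.22, and IDH3A in CMT versus IM at 0.24. The medians were -0.06, -0.05 and -0.16. In these lists too the high muscle marker sum of the CMT library and the high hepatocyte marker sum of the CM library move with the comparisons, and their part was not tested.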
